A study of Mus musculus with 33 samples.

Results

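The neuronal cytoskeleton genes are a set of 10 genes chosen for their role: Tubb3, Dcx, Map2, Mapt and Map1b of neuronal microtubules, Stmn2 and Gap43 of the growth cone, and Nefl, Nefm and Ina of neurofilaments. All 10 were found, by Ensembl ID matched to its mouse symbol, among the 14717 genes of the deposited RNA table. The rule for the set names genes by role and uses no measured value, but earlier results of these data were known when it was made. The cells are P19, a line of mouse embryonal carcinoma that can be driven to neurons or to mesoderm. D3RA and D6RA are P19 cells at days 3 and 6 of differentiation with 1 µM all-trans retinoic acid (RA). D3DMSO and D6DMSO are P19 cells at the same days with 1% dimethyl sulfoxide (DMSO) in place of RA. D0 is undifferentiated P19 cells. Both treatments were given while the cells formed embryoid bodies in bacteriological dishes, after which these were moved to flasks with maintenance medium, per the labels. Each group has 3 libraries of total RNA depleted of ribosomal RNA, 15 in all. The design text calls them biological replicates but is silent on separate cultures; a p-value here therefore speaks only of the variation among these libraries, and that may be technical. All groups share 1 cell line, and each library is bulk RNA of a culture that may hold several cell types.

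Microtubules of axons and dendrites are polymers of alpha- and beta-tubulin, among them the neuronal beta-tubulin TUBB3. Doublecortin (DCX), MAP1B, MAP2 and tau (MAPT) bind along them, with MAP2 known for dendrites and tau for axons, while stathmins such as STMN2 bind free tubulin and promote disassembly. Neurofilaments are intermediate filaments built in neurons from the light and medium chains NEFL and NEFM, the heavy chain and alpha-internexin (INA), and GAP43 is a membrane phosphoprotein of the growth cone. In developing neurons INA, DCX, MAP1B and GAP43 are known as early proteins and the heavy neurofilament chain as a late one.

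The RefSeq promoter windows of 4 of the members are shown because these are the members with the highest log2 fold changes between D6RA and D6DMSO, and their windows differ widely in base composition. Each line is the 250 bases before the annotated start, 5′ to 3′ on the gene's strand, in GRCm38.p6, and capitals mark GGGCGG on either strand. The positions are chrX:143933220-143933469 (- strand) for the first of the Dcx windows, chr1:66175079-66175328 (+ strand) for Map2, chr19:47014431-47014680 (+ strand) for Ina and chr8:123411303-123411552 (+ strand) for Tubb3.
Dcx: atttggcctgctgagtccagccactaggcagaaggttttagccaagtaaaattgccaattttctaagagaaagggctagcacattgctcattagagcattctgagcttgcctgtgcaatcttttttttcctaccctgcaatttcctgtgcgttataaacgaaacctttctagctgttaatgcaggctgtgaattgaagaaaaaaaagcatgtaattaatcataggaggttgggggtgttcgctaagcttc
Map2: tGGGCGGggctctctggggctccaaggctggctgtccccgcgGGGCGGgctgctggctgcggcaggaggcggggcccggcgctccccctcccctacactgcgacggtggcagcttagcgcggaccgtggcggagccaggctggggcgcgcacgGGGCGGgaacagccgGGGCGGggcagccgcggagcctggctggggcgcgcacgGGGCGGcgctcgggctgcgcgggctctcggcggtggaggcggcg
Ina: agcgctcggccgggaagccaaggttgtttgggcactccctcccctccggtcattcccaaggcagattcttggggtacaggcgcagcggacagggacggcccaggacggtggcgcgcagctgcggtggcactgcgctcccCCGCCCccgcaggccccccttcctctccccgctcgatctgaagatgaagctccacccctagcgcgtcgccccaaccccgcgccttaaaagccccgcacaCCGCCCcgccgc
Tubb3: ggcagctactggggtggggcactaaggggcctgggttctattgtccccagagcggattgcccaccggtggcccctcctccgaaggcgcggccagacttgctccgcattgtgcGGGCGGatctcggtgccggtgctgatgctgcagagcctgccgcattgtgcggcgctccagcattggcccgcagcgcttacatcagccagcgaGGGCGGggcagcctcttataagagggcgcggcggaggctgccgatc

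The Map2 window held 81.2% GC with 5 copies of GGGCGG, and the Ina and Tubb3 windows held 70.8% and 68.0% with 2 copies each. The first Dcx window held 41.6% GC, no GGGCGG and 1 TATAAA. Of the 32851 windows of the table, cut to the same 250 bases, 32.7% held GGGCGG and 12.4% held TATAAA on either strand, and the median GC content was 52.4%, with the 5th and 95th percentiles at 34.8% and 73.6%. The Map1b window, the remaining one of the 5 members with an entry, held 66.4% GC with 1 copy of GGGCGG. It also held TATAAA once, and CANNTG once on its own strand (a motif that reads the same on both). CANNTG was found in 66.2% of all windows and, among the 4 printed here, in Ina alone with 1 copy. CAGCACC was found in 5.73% of all windows and, among the members, in Tubb3 alone with 1 copy. None of the 4 motifs was found in all of the printed windows.

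A library held 3.55 to 9.82 M counts in D3RA and 5.86 to 6.87 M in D3DMSO. At day 6 it held 38.2 to 49.6 M in D6RA and 39 to 44.5 M in D6DMSO, and D0 libraries held 7.13 to 9.88 M. The 11 mitochondrial genes of the table had 0 counts in all D0 and D3 libraries and took 41.6 to 42.6% of the counts in D6RA and 49.8 to 55.8% in D6DMSO, so the day and a difference in how the libraries were made or counted cannot be told apart wherever D6 is set against D3 or D0. A set of 4 IDs, Lars2, Gm15564 and 2 others singled out for their high values (the Lars2 set), made up 1.97 to 45.7% of counts outside the mitochondrial genome in D3RA, 3.09 to 32.8% in D3DMSO, at most 1.7% in both day 6 groups and 8.86 to 23.2% in D0. The sums over the 8 neuron markers, none of them among the 10 genes, were 169.9 to 223 CPM (counts divided by the library size in M) in D3RA against 11.5 to 14.8 CPM in D3DMSO, 605 to 612 CPM in D6RA against 10.7 to 13.2 CPM in D6DMSO, and 37.2 to 42.2 CPM in D0.

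Levels are CPM from recovered whole counts. They are not divided by gene length and are compared between groups for 1 gene, never between genes. Differences were fitted with limma on the deposited log2 values and are given as log2 fold changes ± SE. P-values were adjusted by Benjamini-Hochberg over the 14717 genes, and a gene is called at an adjusted p under 0.05. In bulk RNA, fewer cells of a type and less RNA per cell cannot be told apart.

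With RA at day 3, 9 of the 10 members were called higher than with DMSO (D3RA against D3DMSO), where 30.7% of all genes were called higher and 31.4% lower, and Stmn2 was not called. At day 6 all 10 were called higher in D6RA than in D6DMSO, where 32.6% of all genes were called higher and 33.1% lower. The median log2 fold change of the 10 was 3.04 at day 3 and 5.77 at day 6, against -0.01 and -0.02 for all genes. Dcx had the fifth highest log2 fold change of the table at day 6, and Map2 and Ina had ranks 41 and 42. When library sizes were set to the non-mitochondrial counts, the median of all genes at day 3 moved to -0.31 and 27.5% of the called genes were higher in place of 49.4%, but the same 9 members were called higher and Stmn2 was called lower (log2 fold change -0.54, adjusted p = 0.0444).

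**Figure D1:**
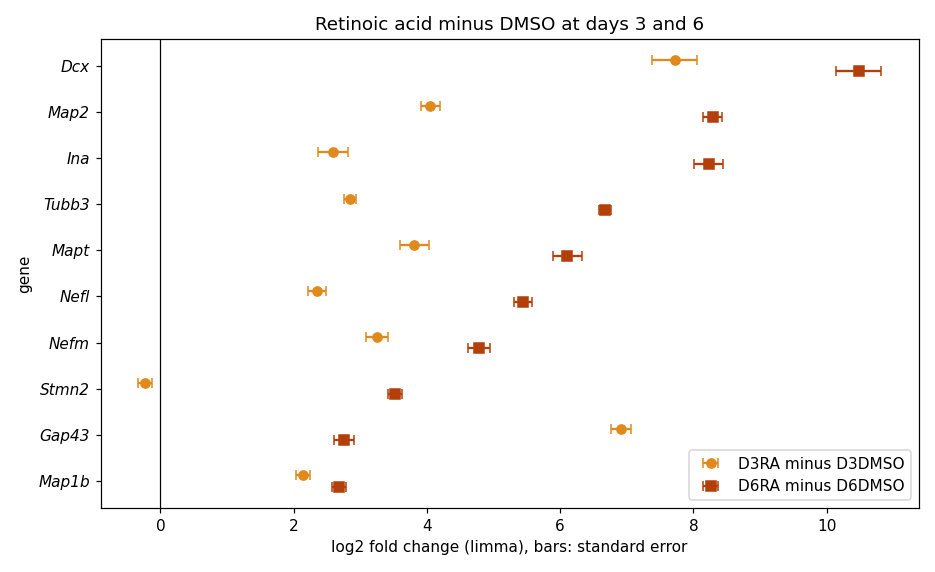
Log2 fold change between RA and DMSO for each of the 10 genes (horizontal axis), at day 3 (circles, D3RA minus D3DMSO) and day 6 (squares, D6RA minus D6DMSO), with the standard error of limma as bars. Stmn2 lies at -0.23 at day 3 and 3.52 at day 6, and Gap43 is the only gene whose square lies left of its circle, 2.75 against 6.92.

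Tubb3, the beta-tubulin isotype used to mark neurons, was present before treatment. It was at 282, 309.8 and 268 CPM in D3RA, against 45.0, 36.3 and 39.0 CPM in D3DMSO. At day 6 it was at 676, 679 and 677 CPM in D6RA, against 6.31, 7.39 and 6.30 CPM in D6DMSO. The D0 libraries held 117, 121 and 99.1 CPM. All 5 groups stood apart, with both RA groups above D0 and both DMSO groups below it. Its log2 fold change was 2.84 ± 0.09 in D3RA against D3DMSO (adjusted p = 3.49e-13) and 6.67 ± 0.09 in D6RA against D6DMSO (adjusted p = 9.55e-18). Against D0 it was 2.6 ± 0.09 in D6RA and -4.07 ± 0.09 in D6DMSO (adjusted p = 2.51e-13 and 7.77e-15). In both, the day cannot be told apart from a difference in how the libraries were made or counted.

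Dcx, the microtubule-binding protein of migrating young neurons, had few counts outside the RA groups. It was at 83.3, 123 and 115 CPM in D3RA, against 0.414, 0.205 and 0.775 CPM in D3DMSO. D6RA held 887, 804 and 802 CPM, against 0.789, 0.714 and 0.306 CPM in D6DMSO, and D0 held 1.54, 2.2 and 1.32 CPM. The RA groups stood far above all others, and D6DMSO overlapped D3DMSO. In counts over 3 libraries this was 1544 in D3RA against 9 in D3DMSO, a ratio of 196 after scaling with a 95% counting interval of 103 to 429.8, and 72019 in D6RA against 42 in D6DMSO, a ratio of 1376 (1018 to 1909.7). The log2 fold changes were 7.72 ± 0.34 at day 3 (adjusted p = 9.52e-12) and 10.48 ± 0.34 at day 6 (adjusted p = 9.4e-14). Dcx also fell in D3DMSO against D0 (log2 fold change -1.76 ± 0.34, adjusted p = 0.000359), on 9 counts against 43, and was no longer called with voom weights (adjusted p = 0.0532) or after thinning all libraries to the smallest (-0.94, adjusted p = 0.233).

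Map2, the dendritic microtubule-associated protein, was at 261, 367 and 315 CPM in D3RA, against 19.1, 15 and 23.1 CPM in D3DMSO. It was at 1291, 1192 and 1166 CPM in D6RA, against 4.17, 3.91 and 3.50 CPM in D6DMSO, and at 12.8, 15.6 and 16.5 CPM in D0. D3DMSO and D0 overlapped, while D6DMSO lay below both and the RA groups above. Between treatments it differed by a log2 fold change of 4.05 ± 0.14 at day 3 (adjusted p = 7.51e-13) and 8.29 ± 0.14 at day 6 (adjusted p = 1.01e-16). In D6DMSO against D0 it was -1.95 ± 0.14 (adjusted p = 3.84e-09).

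Mapt, which encodes tau, rested on 275 counts over the D3RA libraries. It was at 17.7, 13.4 and 18.3 CPM in D3RA, against 1.66, 0.821 and 0.929 CPM in D3DMSO. D6RA held 217, 209 and 203 CPM, against 3.55, 2.69 and 2.89 CPM in D6DMSO, and D0 held 0.923, 1.26 and 1.32 CPM. D3DMSO and D0 overlapped, on 22 counts in D3DMSO and 31 in D0 over 3 libraries each, and D6DMSO lay above both. Its log2 fold change was 3.81 ± 0.22 at day 3 (adjusted p = 2.63e-10) and 6.11 ± 0.22 at day 6 (adjusted p = 3.47e-13). Mapt was also the only member called higher in D6DMSO than in D0 (1.33 ± 0.22, adjusted p = 5.31e-05).

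Map1b, a microtubule-associated protein of growing axons, had at least 187 CPM in every library. D3RA held 849, 943 and 959 CPM, against 187, 194 and 247 CPM in D3DMSO. D6RA held 2861, 2689 and 2724 CPM, against 376, 470.3 and 453 CPM in D6DMSO, and D0 held 453, 474 and 564 CPM. D6DMSO and D0 overlapped, D3DMSO was the lowest group and the RA groups were the highest. RA minus DMSO gave a log2 fold change of 2.14 ± 0.11 at day 3 (adjusted p = 6.06e-11) and 2.68 ± 0.11 at day 6 (adjusted p = 1.89e-12). In D6DMSO against D3DMSO Map1b was higher (1.05 ± 0.11, adjusted p = 8.17e-07).

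Stmn2, the neuronal stathmin of growth cones also called SCG10, followed another course. It was at 65.5, 87.3 and 75.8 CPM in D3RA, against 105, 74.9 and 89.1 CPM in D3DMSO, and both lay below the 168, 180.2 and 166 CPM of D0. At day 6 it was at 198, 193 and 189.8 CPM in D6RA, against 16.5, 18.5 and 15.6 CPM in D6DMSO. D3RA and D3DMSO overlapped, and D6RA lay just above D0. The log2 fold change between treatments was -0.23 ± 0.11 at day 3 (adjusted p = 0.0884) and 3.52 ± 0.11 at day 6 (adjusted p = 7.72e-14). Without D3DMSO replicate 2 the day 3 value was -0.35 and was called lower (adjusted p = 0.0122), and likewise without D3RA replicate 2 (-0.33, adjusted p = 0.0222). Stmn2 was called lower at day 3 with voom weights too (-0.30, adjusted p = 0.0355). The same held with non-mitochondrial counts without the Lars2 set as library sizes (-0.33, adjusted p = 0.0192). It was also called lower (-0.69, adjusted p = 0.000515) in the 10 libraries with less than 20% of counts in the Lars2 set, which leave 1 library each of D3RA and D3DMSO, assumed to vary like the other groups. Stmn2 was the only member called lower in D3RA than in D0 (-1.18 ± 0.11, adjusted p = 1.02e-07), and in D6RA against D0 it was not called (0.18 ± 0.11, adjusted p = 0.162).

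Gap43, the growth cone phosphoprotein, was highest at day 3 of RA. It was at 139, 174 and 142 CPM in D3RA, against 1.24, 1.03 and 1.24 CPM in D3DMSO. D6RA held 62.7, 57.4 and 59.7 CPM, against 9.73, 7.31 and 9.85 CPM in D6DMSO, and D0 held 23.2, 20.4 and 16.3 CPM. All 5 groups stood apart. The counts over 3 libraries were 2372 in D3RA and 22 in D3DMSO, a ratio of 123 after scaling with a 95% counting interval of 81.2 to 197. RA minus DMSO gave a log2 fold change of 6.92 ± 0.15 at day 3 (adjusted p = 2.26e-15) and 2.75 ± 0.15 at day 6 (adjusted p = 4.06e-11). In D3DMSO against D0 Gap43 had a log2 fold change of -3.99 ± 0.15 (adjusted p = 2.7e-12), the largest fall of the 10 genes in that comparison, and was higher again in D6DMSO than in D3DMSO (2.83 ± 0.15, adjusted p = 1.92e-10).

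Nefl, the light neurofilament chain, was at 145, 167 and 132 CPM in D3RA, against 35.8, 26.1 and 25.6 CPM in D3DMSO. It was at 117, 99.0 and 107 CPM in D6RA, against 2.5, 2.86 and 2.06 CPM in D6DMSO, and at 41.4, 38.4 and 35.9 CPM in D0. The groups did not overlap, although the highest D3DMSO library lay just under the lowest D0 library. Its log2 fold change was 2.35 ± 0.14 at day 3 (adjusted p = 2.66e-10) and 5.44 ± 0.14 at day 6 (adjusted p = 4.36e-15). In D6DMSO against D0 it was -3.96 ± 0.14 (adjusted p = 5.71e-13).

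Nefm, the medium chain, whose gene neighbours Nefl, was at 75.1, 90.6 and 109 CPM in D3RA, against 12.7, 7.59 and 8.67 CPM in D3DMSO. It was at 111, 106 and 101 CPM in D6RA, against 3.24, 3.95 and 4.42 CPM in D6DMSO, and at 15, 14 and 14.6 CPM in D0. D6RA and D3RA overlapped and the other groups stood apart. The log2 fold change was 3.25 ± 0.17 at day 3 (adjusted p = 5.3e-11) and 4.78 ± 0.17 at day 6 (adjusted p = 2.02e-13). In the libraries with little Lars2 set RNA, 1 each of D3RA and D3DMSO, the day 3 value was 2.56 (adjusted p = 1.18e-06), and the day 6 difference less that at day 3 was 2.22, in place of 1.53 ± 0.24.

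Ina, which encodes alpha-internexin, was at 44.3, 60.9 and 42.5 CPM in D3RA, against 9.11, 6.57 and 8.52 CPM in D3DMSO. It was at 249.6, 239 and 237 CPM in D6RA, against 0.833, 0.504 and 1.14 CPM in D6DMSO, and at 16.5, 17.3 and 20 CPM in D0. All 5 groups stood apart, in the same order as for Tubb3. The log2 fold change was 2.59 ± 0.22 at day 3 (adjusted p = 2.52e-08) and 8.23 ± 0.22 at day 6 (adjusted p = 6.96e-15). In D6DMSO against D0 Ina changed by -4.48 ± 0.22 in log2 (adjusted p = 2.57e-11), on 57 counts over 3 libraries against 483. After thinning all libraries to the smallest, the value was 7.33 for D6RA against D6DMSO and -3.50 for D6DMSO against D0, and both stayed called. In RefSeq the Ina gene overlaps Nt5c2, and Nefm overlaps the long noncoding RNA A230070E04Rik. The kit keeps strand, but whether the counting used it is not given in the sources used here, so reads of these pairs may be shared.

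**Figure D2:**
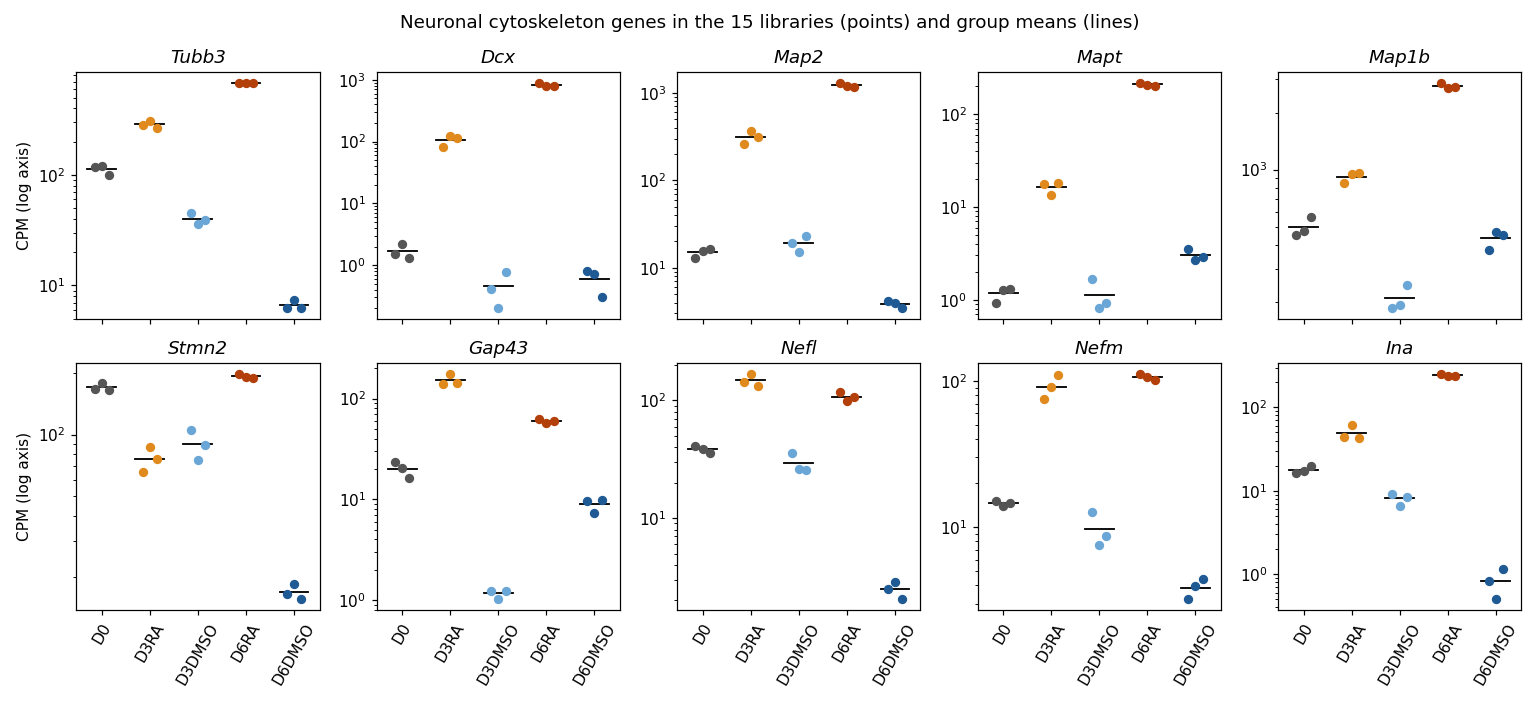
CPM on a log axis in each library (points, 3 per group) and group means (lines) for the 10 genes in D0, D3RA, D3DMSO, D6RA and D6DMSO. Gap43 and Nefl are highest in D3RA and the other 8 genes have their highest mean in D6RA, where Nefm overlaps D3RA. Stmn2 is lower in both day 3 groups than in D0.

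Each treated group was also set against the undifferentiated cells. In D3RA against D0, 9 members were called higher and Stmn2 lower, where 35.0% of all genes were called higher and 33.9% lower. In D3DMSO against D0, 8 members were called lower and none higher, where 28.2% of all genes were called higher and 27.8% lower. Map2 (0.34 ± 0.14, adjusted p = 0.0577) and Mapt (-0.05 ± 0.22, adjusted p = 0.861) were not called there, and Mapt turned to 0.58 (adjusted p = 0.0404) in the libraries with little Lars2 set RNA. The medians of the 10 genes were 2.29 in D3RA and -1.05 in D3DMSO, against 0.01 and 0.02 for all genes. These comparisons share the D0 libraries.

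The falls in D3DMSO were of unequal size and certainty. Tubb3 (-1.48 ± 0.09), Map1b (-1.25 ± 0.11), Ina (-1.15 ± 0.22) and Stmn2 (-0.94 ± 0.11) fell in every alternative tried, as did Gap43. Nefl changed by -0.42 ± 0.14 in log2 (adjusted p = 0.0165) and was not called without D0 replicate 1 (-0.37, adjusted p = 0.0651), D3DMSO replicate 2 (-0.35, adjusted p = 0.0713) or D3DMSO replicate 3 (-0.33, adjusted p = 0.0731). Nefm changed by -0.61 ± 0.17 (adjusted p = 0.00511). In those 10 libraries with little of the Lars2 set, Nefl and Nefm were not called (-0.11 and -0.21, adjusted p = 0.628 and 0.275). Map2 was called higher without D0 replicate 3 (0.41, adjusted p = 0.0443), D3DMSO replicate 2 (0.50, adjusted p = 0.00746) or, through the shared spread, D3RA replicate 1 or 2 (0.34, adjusted p = 0.0445 and 0.0461). Map2 was also called higher with non-mitochondrial counts without the Lars2 set as library sizes (0.41, adjusted p = 0.0248).

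The day 6 groups were set against the same D0 libraries. In D6RA against D0, 9 members were called higher and Stmn2 was not called, where 41.6% of all genes were called higher and 38.3% lower. Dcx (8.93 ± 0.34), Mapt (7.43 ± 0.22) and Map2 (6.35 ± 0.14) had the highest log2 fold changes, and Gap43 (1.60 ± 0.15) and Nefl (1.48 ± 0.14) the lowest among those called. In D6DMSO against D0, 8 members were called lower and Mapt higher, where 37.5% of all genes were called higher and 34.4% lower. Those lower were Ina, Tubb3, Nefl and Map2, with the values above, and Stmn2 (-3.35 ± 0.11), Nefm (-1.92 ± 0.17), Dcx (-1.56 ± 0.34) and Gap43 (-1.15 ± 0.15). The call of Dcx was lost after thinning (-0.69, adjusted p = 0.335). Map1b was not called (-0.20 ± 0.11, adjusted p = 0.118) and turned to 0.03 with non-mitochondrial counts as library sizes. With those sizes 68.0% of called genes of D6DMSO against D0 were higher in place of 52.1%, and the all-gene medians moved to 0.26 in that comparison and 0.20 in D6RA against D0. With the Lars2 set also left out of the sizes, the all-gene median of D6DMSO against D0 was 0.06. Map1b then stayed below 0 and not called.

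**Figure D3:**
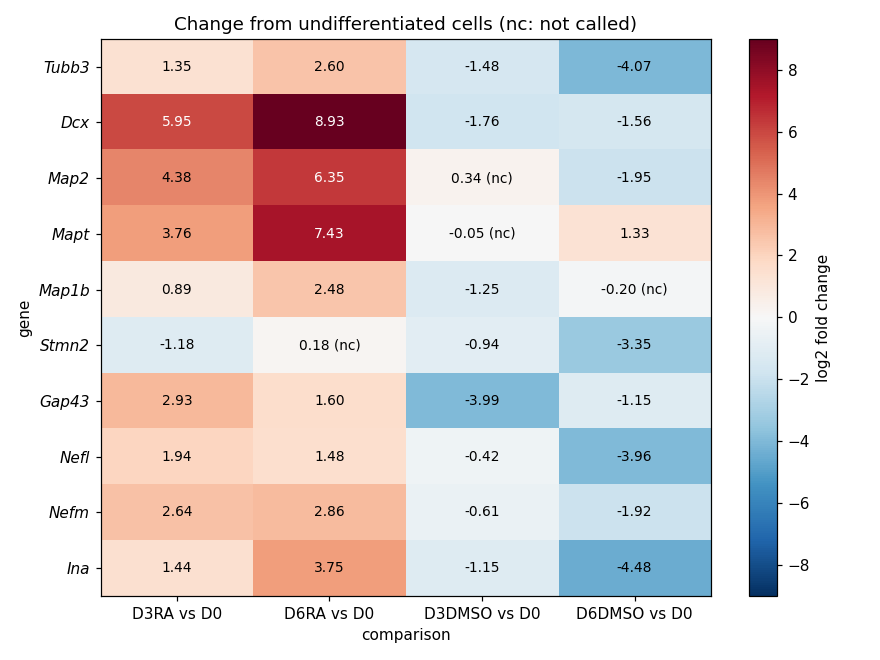
Log2 fold changes against D0 (colour and printed value) for the 10 genes (rows) in D3RA, D6RA, D3DMSO and D6DMSO (columns), all against the same D0 libraries. Values marked nc were not called. The RA columns hold positive values apart from Stmn2 in D3RA (-1.18), and the DMSO columns negative ones apart from Map2 in D3DMSO (0.34) and Mapt in D6DMSO (1.33).

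From day 3 to day 6 of RA, 7 members were called higher in D6RA than in D3RA, 2 were called lower and Nefm was not called (0.22 ± 0.17, adjusted p = 0.242), where 37.2% of all genes were called higher and 32.0% lower. Those higher were Mapt (3.67 ± 0.22), Dcx (2.97 ± 0.34), Ina (2.31 ± 0.22), Map2 (1.96 ± 0.14), Map1b (1.59 ± 0.11), Stmn2 (1.35 ± 0.11) and Tubb3 (1.24 ± 0.09). Gap43 was lower in D6RA (-1.33 ± 0.15, adjusted p = 5.52e-07), in 3 of 3 libraries. Nefl was also called lower in D6RA (-0.46 ± 0.14, adjusted p = 0.00735), but its value was 0.04 (adjusted p = 0.898) with non-mitochondrial counts as library sizes, and after thinning the call was lost (-0.38, adjusted p = 0.0937). That scaling moved the all-gene median to 0.57 and the share of called genes that were higher to 83.6%, in place of 53.7%. Gap43 stayed called lower with it, the 7 higher members stayed higher, and Nefm was called higher (0.73, adjusted p = 0.0117). Nefm was also called higher with voom weights (0.30, adjusted p = 0.0120), and its value was 0.49 in the libraries with little Lars2 set RNA. With the Lars2 set also left out of the non-mitochondrial library sizes, the all-gene median was 0.04. Nefl then stayed called lower, and Nefm stayed not called.

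On the DMSO route, 6 members were called lower in D6DMSO than in D3DMSO and 3 higher, where 28.3% of all genes were called higher and 28.1% lower. Those lower were Nefl (-3.55 ± 0.14), Ina (-3.33 ± 0.22, and -1.94 after thinning), Tubb3 (-2.59 ± 0.09), Stmn2 (-2.40 ± 0.11), Map2 (-2.28 ± 0.14) and Nefm (-1.30 ± 0.17). Gap43, Mapt (1.38 ± 0.22) and Map1b were higher, and Dcx was not called (0.21 ± 0.34, adjusted p = 0.625), with a value of -0.14 without D3DMSO replicate 2 and -0.03 without D6DMSO replicate 1. With non-mitochondrial counts as library sizes the all-gene median was 0.28, and 79.1% of called genes were higher in place of 50.3%.

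The treatment difference itself changed between the days for every member. The difference between RA and DMSO at day 6 less that at day 3 was called above 0 for 9 members and below 0 for Gap43, where 25.4% of all genes were called higher and 23.1% lower. Ina changed by 5.64 ± 0.31 on the log2 scale (adjusted p = 3.09e-10), and by 4.32 after thinning. Map2 changed by 4.25 ± 0.20, Tubb3 by 3.83 ± 0.13 and Stmn2 by 3.75 ± 0.16. Gap43 changed by -4.17 ± 0.21 (adjusted p = 9.91e-11). Map1b changed the least (0.54 ± 0.16, adjusted p = 0.00996) and was not called with non-mitochondrial counts as library sizes (0.77, adjusted p = 0.0789) or in the libraries with little Lars2 set RNA (0.50, adjusted p = 0.0598). Ina, Tubb3, Map2 and Stmn2 were each higher in D6RA than in D3RA and lower in D6DMSO than in D3DMSO. On both sides the day cannot be told apart from a difference in how the libraries were made or counted. With non-mitochondrial counts as library sizes 68.9% of called genes were above 0 in place of 52.4%. With the Lars2 set also left out of the sizes the share was 54.4%, and Map1b stayed called.

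The members differed in how closely they followed each other over the 15 libraries, which share 5 groups, so these correlations of log2 values are descriptions. Tubb3 and Ina had r = 0.99, and Map2 had r = 0.97 with both Dcx and Nefm. Gap43 and Stmn2 had the lowest correlation of any pair, r = 0.25, and Mapt and Stmn2 had r = 0.32. Among all genes with a symbol and a mean of at least 1 CPM, Tuba1a (r = 0.9891) and Gprin1 (r = 0.9889) were the most like Tubb3, Adgrg1 (r = 0.9959) and Cntn1 (r = 0.9935) the most like Dcx, and Wdr47 (r = 0.9961) and Cntn2 (r = 0.9925) the most like Map2. Nacad (r = 0.9935) was the most like Mapt, Tubb2b (r = 0.9891) the most like Nefm and Kcnh2 (r = 0.9906) the most like Gap43. Ina was most like Adgrb1 (r = 0.9900), Nefl like Vta1 (r = 0.9904), Map1b like Ddr1 (r = 0.9896) and Stmn2 like Cpt1a (r = 0.9834).

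Other genes of the same structures were counted from lists written from general knowledge. Beside these counts, 32.6% of all genes were called higher and 33.1% lower in D6RA than in D6DMSO. In D3RA against D3DMSO the shares were 30.7% and 31.4%. Of 10 measured alpha- and beta-tubulins other than Tubb3, 5 were called higher and 5 lower in D6RA than in D6DMSO (median log2 fold change 0.10), and 4 higher and 4 lower in D3RA than in D3DMSO (median 0.11). Tubb2b, a beta-tubulin of developing brain, was at 676 ± 12.8 CPM in D6RA and 27.0 ± 2.54 CPM in D6DMSO, and Tubb2a at 98.8 ± 2.98 CPM in D6RA and 4.84 ± 0.587 CPM in D6DMSO (SD, n = 3 each). Tubb6 was lower, at 24.4 ± 1.33 CPM in D6RA and 124 ± 3.73 CPM in D6DMSO. Tubb2a and Tubb2b are close paralogs, so reads may be split between them.

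Of 12 other intermediate filament genes, 4 were called higher and 7 lower in D6RA than in D6DMSO (median -0.67), and 3 higher and 6 lower at day 3 (median -0.54). Vim, which encodes vimentin of progenitors and mesenchyme, was at 2205 ± 36.6 CPM in D6RA and 311 ± 17.8 CPM in D6DMSO. Nefh, the heavy neurofilament chain, was low, at 3.68 ± 0.420 CPM in D6RA and 0.574 ± 0.163 CPM in D6DMSO (log2 fold change 2.67 ± 0.30, adjusted p = 5.52e-07). Its mean was highest in D0, at 7.97 ± 1.73 CPM, so neither RA group lay above the undifferentiated cells. Krt18, a keratin of simple epithelia, was at 0.449 ± 0.109 CPM in D6RA and 214 ± 16.8 CPM in D6DMSO.

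Among 27 other microtubule-associated proteins and stathmins, 22 were called higher and 3 lower in D6RA than in D6DMSO (median 1.26), and 18 higher and 4 lower at day 3 (median 0.45). Fez1, an adaptor of kinesin transport, was at 259 ± 10.6 CPM in D6RA and 1.49 ± 0.536 CPM in D6DMSO. Stmn3, another neuronal stathmin, was at 113 ± 1.5 CPM in D6RA and 0.789 ± 0.153 CPM in D6DMSO. Map4, the general microtubule-associated protein of dividing and many other cells, was lower at day 3, with 59.4 ± 7.92 CPM in D3RA against 109 ± 19.4 CPM in D3DMSO.

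Of 24 growth cone and axonal actin genes, 18 were called higher and 3 lower in D6RA than in D6DMSO (median 1.34), and 15 higher and 3 lower at day 3 (median 0.69). Gprin1, a partner of G proteins in neurite growth, was at 63.8 ± 1.18 CPM in D6RA and 0.216 ± 0.00523 CPM in D6DMSO, and Dpysl4, of the collapsin response mediator family, at 283 ± 6.56 CPM in D6RA and 3.08 ± 0.324 CPM in D6DMSO. Of 17 axonal kinesin and dynein genes, 14 were called higher and 1 lower at day 6 (median 0.99), and 9 higher and 6 lower at day 3 (median 0.37). Kif5a, the neuronal heavy chain of conventional kinesin, was at 174 ± 7.74 CPM in D6RA and 7.93 ± 0.199 CPM in D6DMSO, whereas Kif5b, its widely expressed relative, was at 299 ± 9.37 CPM in D6RA and 351 ± 11 CPM in D6DMSO.

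**Figure D4:**
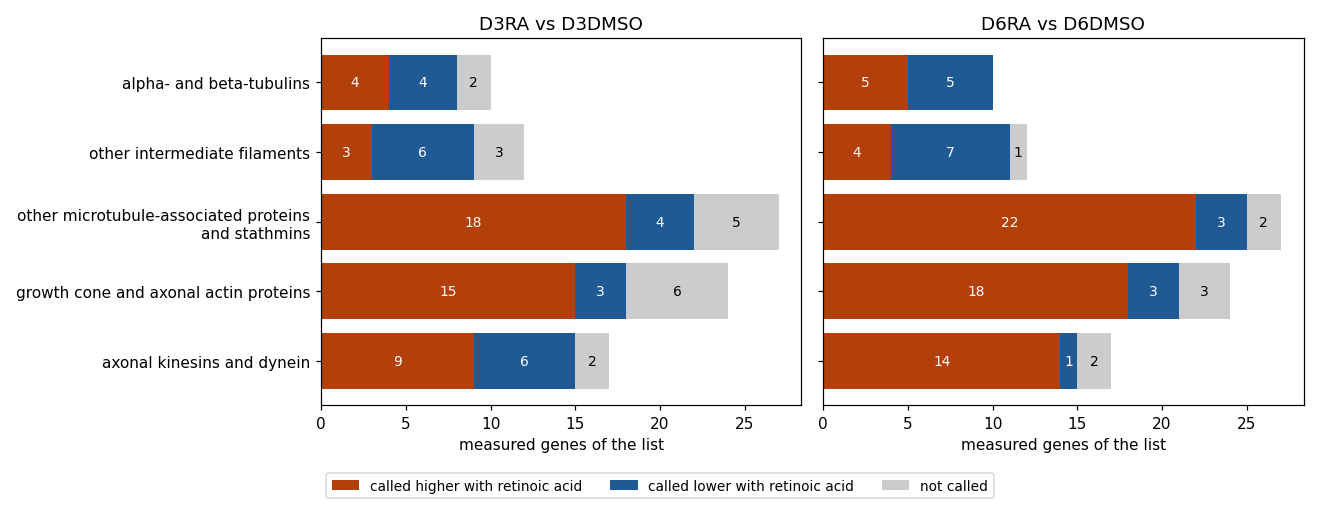
Number of measured genes called higher (red), lower (blue) or not called (grey) with RA in each of 5 gene lists (rows), for D3RA against D3DMSO (left) and D6RA against D6DMSO (right). At day 6 the bar of the microtubule-associated proteins holds 22 higher and 3 lower genes, while the tubulins are divided 5 and 5. Of all genes, 32.6% were called higher and 33.1% lower at day 6, and 30.7% and 31.4% at day 3.

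Markers of neurons and neural progenitors were mostly called higher with RA, like the members, while those of glia were divided. The all-gene shares for these counts were 32.6% higher and 33.1% lower with RA at day 6, and 30.7% and 31.4% at day 3. All 8 neuron markers were called higher in D6RA than in D6DMSO and 7 of 8 in D3RA than in D3DMSO, among them Elavl3, a neuronal RNA-binding protein, at 220.1 ± 6.28 CPM in D6RA and 0.806 ± 0.178 CPM in D6DMSO. All 5 measured neural progenitor markers were higher at both days, and their sums were 802 to 896 CPM in D3RA, 182 to 209 CPM in D3DMSO, 1038 to 1058 CPM in D6RA, 137 to 154 CPM in D6DMSO and 189 to 217 CPM in D0. Of 5 measured glia markers 2 were higher and 2 lower at day 6, and 1 higher and 4 lower at day 3, and Fabp7, which is also on the progenitor list, made most of their sum in D6RA (422 ± 6.10 CPM of 469 to 477 CPM).

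Markers of other lineages differed between treatments too. Beside these counts, 32.6% of all genes were called higher and 33.1% lower with RA at day 6. The shares at day 3 were 30.7% and 31.4%. Cardiac muscle markers summed to 0.563 to 0.697 CPM in D6RA and 89.7 to 125 CPM in D6DMSO, with all 5 called lower. Mesenchyme markers summed to 12.2 to 15 CPM in D6RA and 384 to 486 CPM in D6DMSO, with all 4 called lower. The mesenchyme markers were divided at day 3, with 1 called higher, 1 lower and 2 not called (median log2 fold change 0.03). At day 3, nascent mesoderm markers summed to 1.55 to 2.74 CPM in D3RA and 1005 to 1118 CPM in D3DMSO, all 3 called lower, and endothelium markers to 119.9 to 166 CPM in D3RA and 33.0 to 63.6 CPM in D3DMSO, with 3 of 4 called higher. At day 6 the endothelium markers summed to 17.8 to 25.9 CPM in D6RA and 129 to 151 CPM in D6DMSO, with none called higher and 2 of 4 lower. At 0 counts in all 3 libraries were Tnnt2 (cardiac muscle) in D3RA, and Emcn (endothelium) and Sox7 (endoderm) in D3DMSO. Pluripotent cell markers, of which Sox2 is shared with neural cells, summed to 1788 to 2061 CPM in D0. Their sums were 137 to 164 CPM in D3RA, 565 to 1134 CPM in D3DMSO, 175 to 196 CPM in D6RA and 113 to 133 CPM in D6DMSO. Sox2 made most of the sum in D3RA (147 ± 12.1 CPM) and D6RA (187 ± 11.1 CPM). Pou5f1 was at 0.115 ± 0.124 CPM in D6RA and 47.0 ± 5.98 CPM in D6DMSO. In each RA against DMSO comparison 1 of the 5, Sox2, was called higher and 4 lower. Of 4 endoderm markers only 2, Sox17 and Sox7, were measured, while Foxa2 and Afp were not. The 2 summed to 15.6 to 21.5 CPM in D3RA, 0.616 to 1.80 CPM in D3DMSO, 5.82 to 6.89 CPM in D6RA and 8.82 to 10.7 CPM in D6DMSO. With RA both were called higher at day 3, while at day 6 Sox17 alone was called, and lower. At both days these sums differed between treatments in the same direction as those of the endothelium markers. Which cell type they come from was not tested. The part of these cell types in the members' levels was not tested.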

How the data were processed

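RNA was measured in 15 libraries, grouped by the treatment and day in their titles; the 18 chromatin immunoprecipitation samples of the 33 in the series are not analysed here. The authors deposited log2 values for 14717 Ensembl genes, of which 14228 matched a symbol. The submitters' processing notes name the mm9 genome, STAR 2.6.0c, Bowtie2 2.2.9, limma, featureCounts, edgeR, Trimmomatic 0.32, FastQC 0.11.2 and SAMtools 0.1.19, without saying which made this table.

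Undoing the log2 and removing 1 constant for each library and an added count of 0.5 gave values that were all (100%) within 0.05 of a whole number, taken as recovered counts. The ratios of the library sizes behind CPM follow the deposited scale, and these sizes were 2.19 to 11 M in D3RA, 4.87 to 7.24 M in D3DMSO, 24.4 to 31.9 M in D6RA, 22.8 to 23.8 M in D6DMSO, while D0 had 6.36 to 10.6 M. Counting intervals (95%) compare summed counts, cover counting error only and leave out the spread between libraries. The filter, if any, that the authors applied to low genes is not given in the sources used here.

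Genes were compared with limma 3.58.1 (trend in the variance, R 4.3.3), 1 coefficient per group, 10 residual degrees of freedom, two-sided. The fit was tried on simulated counts for D3RA against D3DMSO alone, with no limit set on false calls under 10 CPM. Other software was Python 3.11.15 with matplotlib 3.10.9, scipy 1.17.1, pandas 2.3.3 and numpy 2.4.6. The 10 members and the gene lists were chosen with earlier results of these data known. Besides the members, genes named are, per list, the 2 highest and 2 lowest called log2 fold changes between treatments (1 CPM or more in the group where the gene is higher), used where examples are given, and the most alike genes by Pearson correlation. Nefh, Map4 and Kif5b were taken by that rule. Promoter windows come from RefSeq (GRCm38.p6), which matched 5 of 10 members; the authors' build is mm9, so no position is given in it.

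Alternatives were quantile normalization, filters of 1 and 5 CPM in 3 libraries, no trend, voom weights, median-of-ratios scaling, another prior count, thinning, fits of fewer groups, leaving out each library and a replicate block. Library sizes from non-mitochondrial counts, the same without the Lars2 set, and the 10 libraries with less than 20% Lars2 set were chosen after seeing the data.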

Additional observations from a re-analysis of the deposited data

Results flagged for a closer look

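The treatment difference (RA minus DMSO) at day 6 was tested against that at day 3, and it differed for all 10 neuronal cytoskeleton genes by limma (p-values adjusted over the whole table). On the log2 scale the change was 5.64 for Ina (4.32 after thinning all libraries to the smallest), 4.25 for Map2, 3.83 for Tubb3, 3.75 for Stmn2 and 3.09 for Nefl. It was 2.76 for Dcx, 2.30 for Mapt, 1.53 for Nefm and 0.54 for Map1b. For Gap43 it was -4.17. The adjusted p was between 2.21e-12 (Tubb3) and 0.00996 (Map1b). Map1b was no longer called with non-mitochondrial counts as library sizes (0.77, adjusted p = 0.0789) or in the libraries with little Lars2 set RNA (0.50, adjusted p = 0.0598). With non-mitochondrial counts without the Lars2 set as library sizes, Map1b stayed called. The deeper day 6 libraries and their mitochondrial counts move with the day on both sides of this difference, and their part in it was not tested.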

How the results depend on the processing

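The number of members called stayed within 1.5 times the reported one in each of the 9 comparisons under every alternative that could be run. As most of the 10 members were called in each comparison, this number could rise little. It also does not show whether the same members were called. Of 90 member results, 77 kept their direction and side of the threshold in all alternatives. Among the others, 4 results changed sign. For Mapt in D3DMSO against D0 the value was 0.03 with non-mitochondrial counts without the Lars2 set as library sizes, 0.58 (adjusted p = 0.0404) in the libraries with little Lars2 set RNA, and -0.33 to 0.12 when each library was left out. Map1b in D6DMSO against D0 was 0.03, and Nefl in D6RA against D3RA was 0.04, with non-mitochondrial counts as library sizes. Both stayed below 0 when the Lars2 set was also left out of those sizes. Dcx in D6DMSO against D3DMSO was -0.14 to 0.62 when each library was left out. The cause was not tested. Among the results not called, Stmn2 in D6RA against D0 was called in a fit of those groups alone (0.18, adjusted p = 0.00719), and Nefm in D6RA against D3RA with voom weights (0.30, adjusted p = 0.0120), with non-mitochondrial counts as library sizes (0.73, adjusted p = 0.0117) and in the libraries with little Lars2 set RNA (0.49, adjusted p = 0.0125). The filter of 1 CPM in 3 libraries removed no gene. Whether the replicate numbers pair the libraries was not tested. Over 30 pairs of the same number, the correlation of deviations from the group means was -0.15 to 0.21, with 2 pairs over 0.1. Its median was 0.021, against -0.011 for pairs of other numbers. In all, 8 of 15 libraries correlated best with a library of their own number. A replicate block changed no call of a member, and with it 9 members were called in D3RA against D3DMSO and 10 in D6RA against D6DMSO. Depth limits Dcx and Mapt in the DMSO groups and D0, which rest on 9 to 211 counts over 3 libraries. It also limits Gap43 in D3DMSO, which rests on 22, and Ina in D6DMSO, which rests on 57. After thinning to the smallest library Ina was -1.94 in D6DMSO against D3DMSO and 4.32 in the day 6 difference less that at day 3, and both stayed called.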

Other observations

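Genes that act on these structures were counted in the same way. Of all genes, 32.6% were called higher and 33.1% lower with RA at day 6, and 30.7% and 31.4% at day 3. Of 20 kinases and phosphatases of the neuronal cytoskeleton, 15 were called higher and none lower in D6RA than in D6DMSO (median log2 fold change 0.83), and 13 higher and 4 lower in D3RA than in D3DMSO (median 0.39). Cdk5r1, the p35 activator of the tau and neurofilament kinase CDK5, was at 118 ± 2.70 CPM in D6RA and 2.63 ± 0.385 CPM in D6DMSO, and Mapk10, the neuronal JNK3, at 60.5 ± 2.64 CPM in D6RA and 0.650 ± 0.436 CPM in D6DMSO (SD, n = 3 each). Brsk2, a kinase of neuronal polarity, had 28.7 ± 3.08 CPM in D3RA, against 1.62 ± 0.0942 CPM in D3DMSO.

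Of 12 genes of the repressor REST and its corepressors, 3 were called higher and 5 lower in D6RA than in D6DMSO (median -0.22), and 4 higher and 5 lower at day 3 (median -0.09). The all-gene shares were 32.6% and 33.1% at day 6, and 30.7% and 31.4% at day 3, so these counts are not read as a result about the list. Rest, which represses neuronal genes outside neurons, had 91.3 ± 12.8 CPM in D3RA, against 212 ± 12.5 CPM in D3DMSO (log2 fold change -1.22 ± 0.08, adjusted p = 2.09e-09). At day 6 it had 72.6 ± 1.11 CPM in D6RA and 201 ± 10.7 CPM in D6DMSO (-1.47 ± 0.08, adjusted p = 1.23e-10). Rest was at 321 ± 10.5 CPM in D0, so the means of both DMSO groups also lay below the undifferentiated cells. Ctdsp2, a phosphatase that works with REST, was at 35.4 ± 1.58 CPM in D6RA and 104 ± 16.5 CPM in D6DMSO, while the corepressor Rcor2 was at 162 ± 11.7 CPM in D6RA and 114 ± 14.2 CPM in D6DMSO. No relation of these levels to the members was tested.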
